A study of Homo sapiens with 36 samples.

Results

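The genes described here are the 3 D-type cyclins (CCND1, CCND2 and CCND3), their kinases CDK4 and CDK6, and 5 inhibitors of these and related kinases (CDKN1A, CDKN1B, CDKN1C, CDKN2C and CDKN2D). They are 10 of the 57665 genes in the deposited tables. Each was found by its symbol, joined to the counts through the gene identifier, and each symbol had 1 row. All 10 passed the filter on low counts, which left 19043 tested genes.

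The samples were U2OS cells, a human osteosarcoma line, and every group carried Dmr-PERK, a stable transgene that joins DmrB to mouse PERK's kinase domain. The ligand AP20187, called dimerizer in the labels, brings copies of this protein together, and the active kinase phosphorylates the initiation factor eIF2α, which sets off the integrated stress response. Wild-type (WT) cells and ATF4 knockout (KO) cells were untreated (0 h) or had dimerizer for 2, 4, 8, 16 or 24 h, which made 12 groups of 3 wells and 36 libraries. The comparisons ask how each transcript changed over the hours with dimerizer and whether that change differed without ATF4, a transcription factor whose translation rises in this response. Dimerizer was added at the stated times before collection. Every treated sample had the same labelled dose, for which the sources used here give no unit. All cells carried Dmr-PERK, so effects of the ligand and of the kinase cannot be told apart. The sources do not say whether the knockout line is 1 clone, so a difference between the genotypes cannot be told apart from a difference between the lines. The labels do not state that wells came from independent cultures, and p-values then reflect well-to-well spread alone, which may be technical.

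Libraries held 8608783 to 16265056 expected counts. Of 9 osteoblast and mesenchymal markers, 5 had a mean of at least 1 CPM (a gene's counts scaled to the size of its library), among them COL1A1, SPARC and RUNX2, while SP7 and TWIST1 were under 0.1 CPM, and none of 5 blood cell markers reached 1 CPM. Of the other marker lists, 3 of 5 epithelial markers (EPCAM 3.88, CDH1 4.54 and ESRP1 1.08 CPM), 2 of 4 neural markers (SYP 9.92 and RBFOX3 11.4 CPM) and 1 of 3 endothelial markers (VWF 1.84 CPM) did. Summed osteoblast and mesenchymal markers ranged over 5560 to 5630 CPM untreated and 2340 to 2390 CPM at 24 h in WT. In KO they ranged over 5850 to 5980 CPM untreated and 3280 to 3330 CPM at 24 h. Summed epithelial markers ranged over 9.75 to 10.7 CPM untreated and 15.3 to 17.3 CPM at 24 h in WT. In KO these ranged over 7.56 to 9.70 CPM untreated and 4.71 to 6.69 CPM at 24 h. The part of these markers in the results was not tested. The targeted gene, ATF4, stood at 310.0, 323 and 322 CPM in untreated WT libraries and at 259, 274 and 265 CPM in untreated KO libraries. At 24 h it stood at 690.0, 705 and 713 CPM in WT and at 719, 714 and 760.0 CPM in KO. Its mRNA was thus present in all KO libraries, and a count per gene does not show whether an allele is disrupted.

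D-type cyclins bind CDK4 or CDK6, and the active complex phosphorylates RB proteins, which releases E2F factors and lets cells pass from G1 into S phase. INK4 proteins, which include the products of CDKN2C and CDKN2D, bind CDK4 and CDK6 and keep the cyclins off. CIP/KIP proteins, the products of CDKN1A (p21), CDKN1B (p27) and CDKN1C (p57), bind whole cyclin-kinase complexes and block CDK2 in particular. Cyclin D1 protein is short-lived and is known to fall when eIF2α is phosphorylated and its translation drops; mRNA alone was measured here.

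Levels of different genes are compared on the TPM scale, which takes gene length into account. In untreated WT cells CDK4 had the highest TPM of the 10 (217 ± 2.65, SD, n = 3), followed by CDKN1A (130.0 ± 7.57) and CCND1 (128 ± 1.68), whose libraries overlapped. CCND2 (41.5 ± 1.15), CDK6 (41.5 ± 0.883) and CCND3 (38.2 ± 1.90) came next and lay within 36 to 42.5 TPM. CDKN2C stood at 35.6 ± 1.05 TPM, and CDKN2D (17.1 ± 0.469), CDKN1C (16.9 ± 2.77) and CDKN1B (14.5 ± 1.36) were lowest. The CDKN1C libraries overlapped those of both other genes, and CDKN2D (16.5 to 17.4 TPM) lay above CDKN1B (13.5 to 16.1 TPM). After 24 h with dimerizer the WT order had changed. CDK4 was still highest (292 ± 17.6 TPM), CCND2 had moved to the next place (105 ± 1.95 TPM), above CDKN1A (98.3 ± 1.31 TPM) and CCND1 (73.0 ± 13.4 TPM), and CDKN1C was lowest (4.08 ± 0.814 TPM). In KO cells at 24 h the order began with CDK4 (288 ± 0.937 TPM), CCND1 (130.0 ± 9.84 TPM) and CDKN1A (90.4 ± 6.56 TPM), and CCND2 stood at 31.5 ± 2.77 TPM.

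CCND1, the gene of cyclin D1 (chr11:69641087-69654474, plus strand, GRCh38), fell in WT cells and rose for a time in KO cells. In WT it stood at 264, 253 and 250 CPM untreated, at 228, 218 and 222 CPM at 8 h and at 159, 158 and 152 CPM at 24 h. Every treated WT library lay below every untreated one, and the log2 change at 24 h was -0.71 ± 0.03 (SE; adjusted p = 6.4e-22, edgeR's quasi-likelihood test with Benjamini-Hochberg adjustment over all tested genes, used throughout), a fold of 0.612. In KO cells CCND1 stood at 346, 319 and 322 CPM untreated, at 433, 433 and 415 CPM at 8 h and at 292, 299 and 292 CPM at 24 h. The KO libraries at 8 h lay above all untreated ones and those at 24 h below them, with log2 changes of 0.38 ± 0.03 (adjusted p = 2.1e-14) and -0.16 ± 0.03 (adjusted p = 2.5e-05). On the TPM scale, here and for the other genes limma on log2(TPM + 1) with the 2 untreated KO columns that match their counts better, the rise at 8 h in KO was 0.21 and was not called (adjusted p = 0.076). The KO change exceeded the WT change by 0.35 ± 0.05 at 4 h, 0.58 ± 0.04 at 8 h, 0.63 ± 0.05 at 16 h and 0.55 ± 0.05 at 24 h on the log2 scale; of these, the value at 4 h was not called on the TPM scale (0.31, adjusted p = 0.32). CCND1 was already 1.28-fold higher in KO than in WT at 0 h and was 1.88-fold higher at 24 h. LTO1 (ORAOV1 in the tables) overlaps 1399 bases of CCND1 on the opposite strand and had 13.0% as many counts. It rose in both genotypes at 24 h, by 0.82 ± 0.07 in WT and 0.70 ± 0.07 in KO on the log2 scale. The sources used here give no strand setting for the counting, so reads of the overlap cannot be assigned with certainty.

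CCND2, the gene of cyclin D2 (chr12:4273772-4305350, plus strand), rose in WT cells at every time and did not rise in KO cells at any. The WT libraries stood at 168, 165 and 166 CPM untreated, at 192, 189 and 197 CPM at 2 h, at 274, 254 and 273 CPM at 4 h and at 328, 327 and 326 CPM at 8 h. At 16 h they stood at 435, 422 and 426 CPM and at 24 h at 431, 430.0 and 417 CPM. No treated WT library overlapped an untreated one, and the levels at 16 and 24 h overlapped each other. The fold at 24 h was 2.56, a log2 change of 1.36 ± 0.03 (adjusted p = 1.2e-34). In KO cells the libraries stood at 141, 149 and 143 CPM untreated, at 123, 122 and 123 CPM at 8 h and at 127, 128 and 128 CPM at 24 h. The KO libraries at 24 h lay below all untreated ones, with a log2 change of -0.18 ± 0.03 (adjusted p = 3.7e-06). The difference of the courses, KO minus WT, was called from 2 h on. It was -0.24 ± 0.04 at 2 h, -0.87 ± 0.04 at 4 h, -1.21 ± 0.04 at 8 h, -1.58 ± 0.04 at 16 h and -1.54 ± 0.04 at 24 h on the log2 scale; the value at 2 h was not called on the TPM scale (-0.35, adjusted p = 0.12). The KO level was 0.868 of the WT level at 0 h and 0.299 of it at 24 h.

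CCND3, the gene of cyclin D3 (chr6:41934933-42050357, minus strand), fell in WT cells from 8 h on. It stood at 41.8, 41.8 and 38.0 CPM in untreated WT libraries, at 31.0, 28.8 and 30.5 CPM at 8 h and at 25.8, 28.8 and 27.1 CPM at 24 h. The treated libraries at these times did not overlap the untreated ones, and the log2 change at 24 h was -0.57 ± 0.06 (adjusted p = 2.5e-10). In KO cells CCND3 stood at 36.9, 35.8 and 37.0 CPM untreated and at 36.4, 34.8 and 35.0 CPM at 24 h. These libraries overlapped, and the log2 change of -0.05 ± 0.06 (95% interval -0.17 to 0.08) was not called. No KO time was called, although 4 h and 16 h passed without replicate 1 of that time (0.21 and 0.19, adjusted p = 0.017 and 0.027). The KO change exceeded the WT change by 0.45 ± 0.09 at 8 h, 0.47 ± 0.09 at 16 h and 0.52 ± 0.09 at 24 h. These differences were called on counts and not on the TPM scale, where the values were 0.22, 0.28 and 0.33 (adjusted p = 0.36, 0.15 and 0.072) and where the KO change at 24 h was -0.36 (adjusted p = 0.0021).

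**Figure D1:**
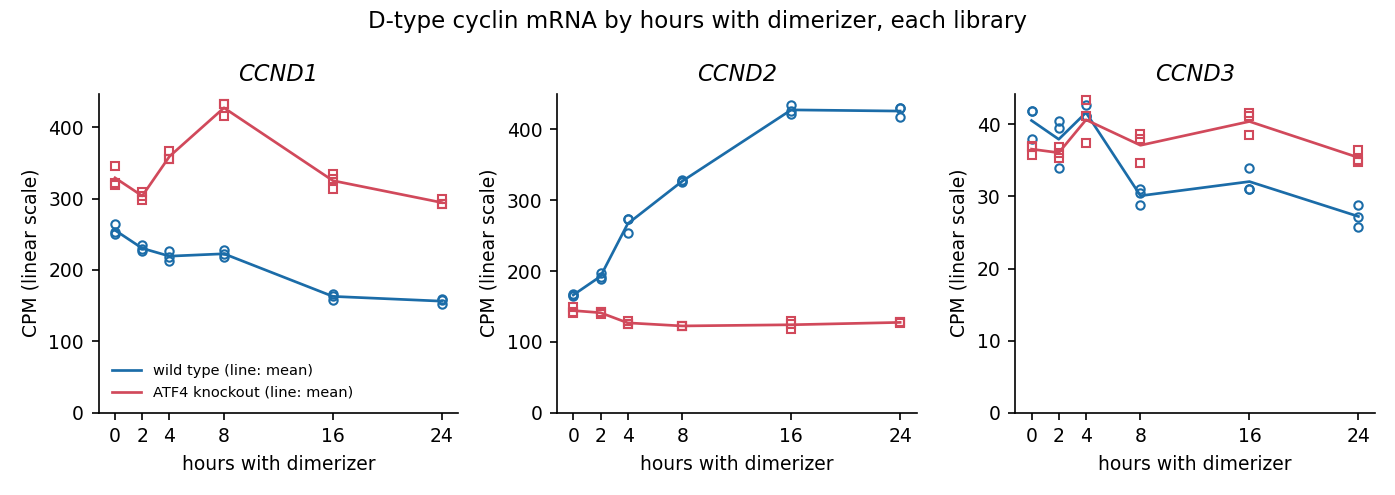
CPM of CCND1, CCND2 and CCND3 (vertical axis, linear from 0) against hours with dimerizer, with 1 open symbol per library (circles WT, squares KO) and a line through the mean of 3 libraries. In WT cells CCND2 climbs from 165 to 168 CPM untreated to 417 to 431 CPM at 24 h while CCND1 falls, and in KO cells CCND2 stays at or under 149 CPM and CCND1 reaches 415 to 433 CPM at 8 h.

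The opposite courses of CCND1 and CCND2 in WT cells left the sum of the D-type cyclins within its spread and changed its make-up. Summed TPM of the 3 cyclins was 207 ± 2.56 in untreated WT cells and 201 ± 12.7 at 24 h, and the libraries of these groups overlapped. The share of CCND2 in that sum rose from 20.0% (19.6 to 20.2% over the libraries) to 52.3% (48.8 to 55.5%), and the share of CCND1 went from 61.6% (60.9 to 62.9%) to 36.1% (32.3 to 41.0%). In KO cells the share of CCND1 was 68.5% untreated, 75.3% at 8 h and 68.1% at 24 h, and that of CCND2 was 15.8, 12 and 16.6%. The summed TPM in KO was 240.0 ± 5.91 untreated, 253 ± 8.92 at 8 h and 190.0 ± 11.4 at 24 h. The untreated KO values on the TPM scale rest on 2 deposited columns, because the third did not match the counts of its library (r = 0.497 over 10521 genes). Columns 1 and 2 had r = 0.914 and 0.934 with the libraries of their own numbers. Even so, no untreated KO library matched its own column best, and library 3 had its highest r, 0.966, with column 2. No test was made on the sums or shares.

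**Figure D2:**
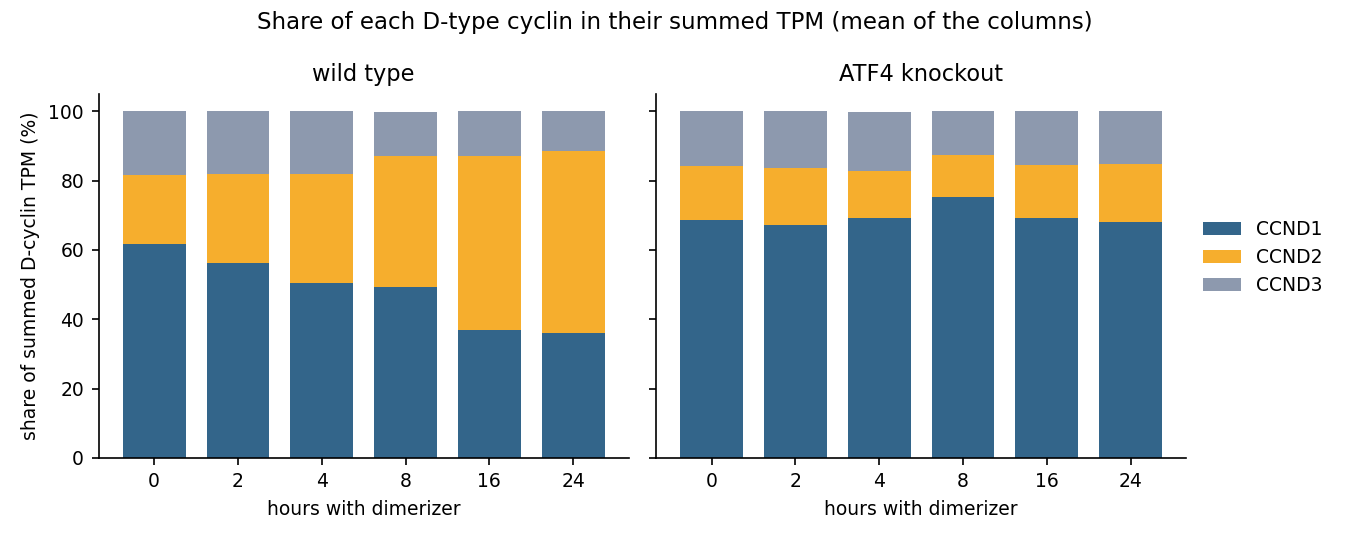
Share of CCND1, CCND2 and CCND3 in their summed TPM (vertical axis, percent), as the mean of the columns of each group, by hours with dimerizer in WT (left) and KO cells (right). The CCND2 share in WT widens from 20.0 to 52.3%, and CCND1 keeps at least 67.2% in every KO group.

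Among the CIP/KIP inhibitors, CDKN1A (p21; chr6:36676460-36687339, plus strand) encodes a protein that halts the cell cycle after DNA damage and other stress. RefSeq promoter windows (GRCh38.p14) were matched by symbol for 7 of the 10 genes, with 12 windows in all because some genes have several starts. No window was used for CCND1, CCND2 or CDKN1C. For CDKN1A, CDKN1B and CDK4 the window shown lies inside the gene span given here, which is from GENCODE and not from RefSeq. The 250 bases before the listed start of CDKN1A (chr6:36678464-36678713, plus strand) are shown for the motif copies they hold. Capitals mark GGGCGG, the GC box that SP1 is known to bind, found at 4 places on either strand, the last pair overlapping by 1 base; 13.9% of 35116 windows of this length hold 3 or more.
CDKN1A: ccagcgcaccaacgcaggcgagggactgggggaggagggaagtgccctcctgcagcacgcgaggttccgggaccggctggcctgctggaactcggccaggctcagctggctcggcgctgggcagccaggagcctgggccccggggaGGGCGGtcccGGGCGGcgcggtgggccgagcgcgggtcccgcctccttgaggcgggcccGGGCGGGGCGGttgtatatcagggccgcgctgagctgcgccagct
CDKN1A stood at 161, 159 and 155 CPM in untreated WT libraries, at 181, 163 and 155 CPM at 2 h and at 123, 117 and 120.0 CPM at 24 h. In KO it stood at 170.0, 180.0 and 171 CPM untreated, at 210.0, 190.0 and 189 CPM at 2 h and at 113, 104 and 108 CPM at 24 h. At 2 h the KO libraries lay above all untreated ones (log2 change 0.17 ± 0.04, adjusted p = 0.0017) and the WT libraries overlapped them (0.06 ± 0.04, not called). From 4 h on, CDKN1A was lower than untreated in both genotypes without overlap. The log2 change at 24 h was -0.40 ± 0.04 in WT (adjusted p = 5.9e-11) and -0.68 ± 0.04 in KO (adjusted p = 8.3e-18). KO minus WT was called at 8 h (-0.23 ± 0.06, adjusted p = 0.0057) and 24 h (-0.28 ± 0.06, adjusted p = 0.00038). It was not called at 2 h (0.11 ± 0.06), 4 h (-0.17 ± 0.06) or 16 h (-0.14 ± 0.06), of which 16 h passed in a fit of these groups alone (-0.18, adjusted p = 0.011) and without WT 0 h replicate 1 (-0.18, adjusted p = 0.042).

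CDKN1B (p27; chr12:12715058-12722371, plus strand), whose protein is controlled largely by its turnover through SKP2, was the inhibitor that was higher at 24 h in both genotypes, where the other 4 were lower. The 250 bases before its listed start (chr12:12717118-12717367, plus strand) are printed beside its values, with capitals for CCAAT, the box bound by NF-Y, which is present 2 times. On either strand, 32.0% of the windows hold this box at least 1 time.
CDKN1B: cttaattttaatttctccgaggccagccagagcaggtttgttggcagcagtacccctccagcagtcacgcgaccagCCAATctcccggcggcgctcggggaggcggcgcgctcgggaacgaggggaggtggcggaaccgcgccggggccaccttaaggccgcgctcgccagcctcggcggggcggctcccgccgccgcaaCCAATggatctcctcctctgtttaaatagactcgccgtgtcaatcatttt
In WT it stood at 23.1, 24.2 and 25.4 CPM untreated, at 34.5, 36.3 and 37.7 CPM at 2 h, at 27.9, 27.6 and 25.6 CPM at 4 h and at 32.8, 32.8 and 37.0 CPM at 24 h. The WT course thus rose early, dipped and rose again, and the value at 4 h was not called (0.16 ± 0.07, adjusted p = 0.066), though it passed without WT 0 h replicate 3 or WT 4 h replicate 3 (0.20 and 0.21, adjusted p = 0.046 and 0.031). In KO it stood at 22.9, 23.9 and 23.4 CPM untreated, 30.1, 29.4 and 31.0 CPM at 2 h, 22.4, 21 and 22.7 CPM at 4 h and 26.4, 30.4 and 27.3 CPM at 8 h. The KO libraries were highest at 16 h (35.7, 36 and 37.0 CPM), above all those of 2 h, and stood at 29.1, 31.7 and 32.4 CPM at 24 h. The log2 change at 2 h was 0.58 ± 0.06 in WT and 0.36 ± 0.07 in KO, and at 24 h it was 0.49 ± 0.06 and 0.41 ± 0.07, all called. KO minus WT was called at 8 h alone (-0.27 ± 0.09, adjusted p = 0.038). That call was lost without any 1 of KO 0 h replicates 2 and 3, KO 8 h replicates 1 and 3, WT 0 h replicate 1 or WT 8 h replicate 3, and it was lost with DESeq2 (adjusted p = 0.11), without the filter (0.16) and in a fit of these groups alone (0.083).

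CDKN1C (p57; chr11:2883213-2885773, minus strand), an imprinted growth inhibitor, had the steepest fall of the 10 genes in both genotypes. It stood at 13.6, 17.0 and 18.8 CPM in untreated WT libraries, at 6.93, 9.66 and 6.33 CPM at 4 h and at 5.09, 4.20 and 3.82 CPM at 24 h. In KO it stood at 22.4, 25.1 and 22.4 CPM untreated, at 9.75, 9.24 and 9.47 CPM at 4 h and at 2.59, 2.75 and 2.79 CPM at 24 h. All KO libraries lay above all WT libraries at 0 h and below them at 24 h, so the CPM courses crossed. Under none of the 3 TPM settings was KO against WT called at 0 h or 24 h. The 24 h level was 0.268 of the untreated level in WT and 0.117 of it in KO, log2 changes of -1.90 ± 0.15 and -3.09 ± 0.15 (adjusted p = 4.9e-15 and 1.2e-21). KO minus WT was -1.16 ± 0.23 at 8 h, -1.49 ± 0.23 at 16 h and -1.19 ± 0.23 at 24 h.

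The INK4 inhibitors were lower at 24 h in both genotypes, and the fall of CDKN2C was smaller in KO at 16 and 24 h. CDKN2C (p18; chr1:50960745-50974633, plus strand) stood at 44.0, 44.3 and 45.4 CPM in untreated WT libraries, at 23.7, 22.6 and 25.5 CPM at 4 h and at 15.1, 14.5 and 15.8 CPM at 24 h. In KO it stood at 37.6, 38.2 and 31.2 CPM untreated, at 16.8, 17.4 and 15.9 CPM at 8 h and at 23.7, 18.9 and 20.3 CPM at 24 h. WT libraries lay above KO libraries at 0 h and below them at 24 h. The log2 change at 24 h was -1.57 ± 0.08 in WT (adjusted p = 2.3e-20) and -0.76 ± 0.08 in KO (adjusted p = 3.2e-11), and KO minus WT was 0.63 ± 0.12 at 16 h and 0.80 ± 0.12 at 24 h. It was not called at 2, 4 or 8 h (0.14, 0.34 and 0.21, adjusted p = 0.81, 0.11 and 0.24), though 4 h passed under 1 of 17 count settings. At 2 h CDKN2C was called higher than untreated in KO (0.23, adjusted p = 0.02), a call that single libraries decided. CDKN2D (p19; chr19:10566462-10569059, minus strand) went from 13.1, 12.2 and 12.7 CPM to 6.81, 6.75 and 7.10 CPM at 24 h in WT and from 11.5, 11.5 and 12.5 CPM to 6.25, 7.66 and 8.78 CPM in KO. Its log2 changes were -0.89 ± 0.11 and -0.63 ± 0.11, and the difference at 24 h, 0.26 with a 95% interval of -0.07 to 0.58, was not called. Of the other INK4 genes, CDKN2B (p15), a target of TGF-β signalling, was lower at 24 h in each genotype, with a log2 change of -2.62 ± 0.10, and CDKN2A had too few counts to be tested.

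**Figure D3:**
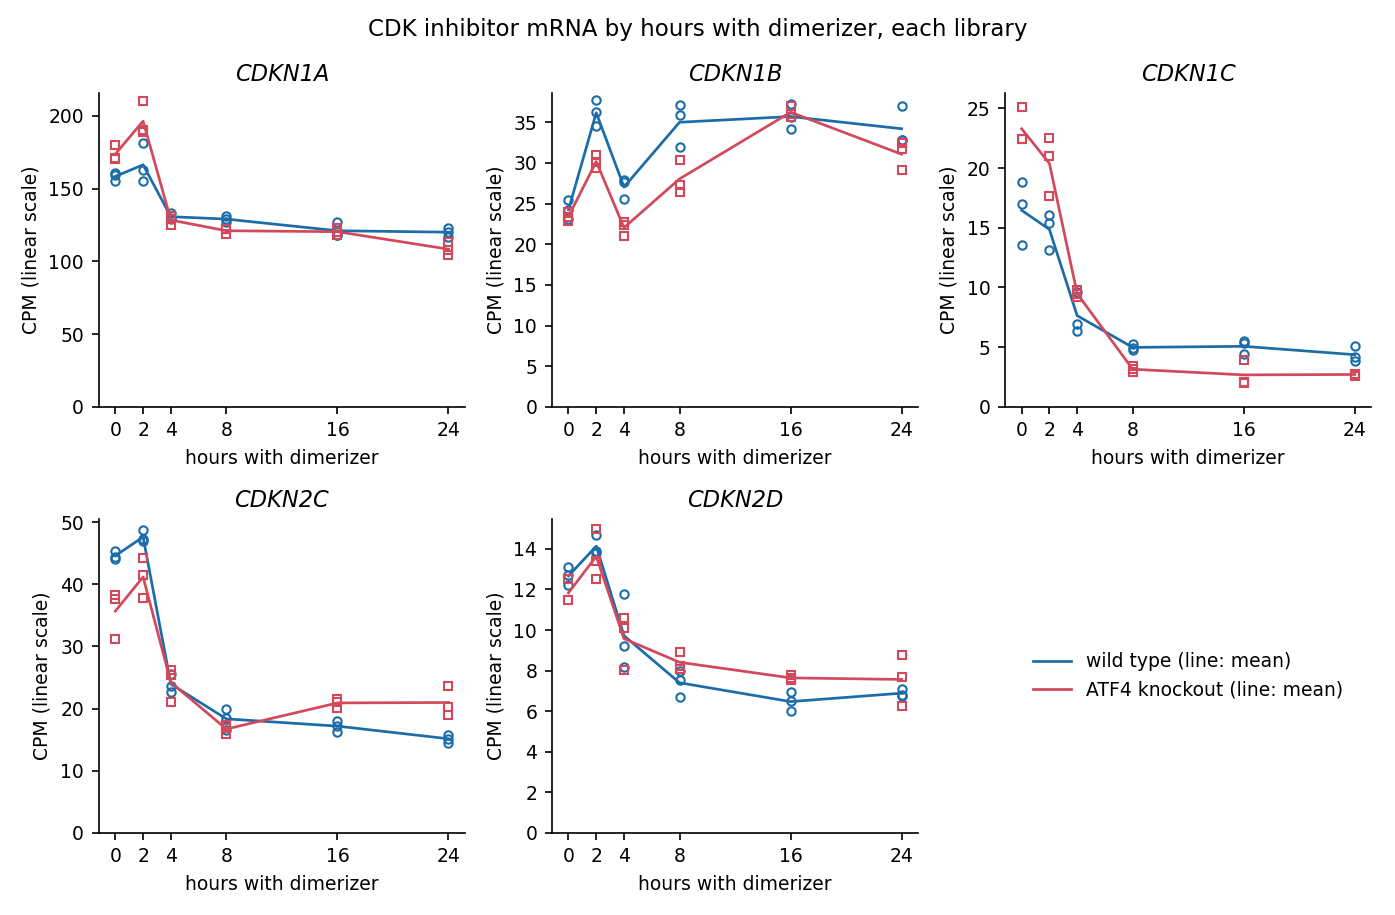
CPM of the 5 inhibitors (vertical axes, linear from 0, each panel with its own range) against hours with dimerizer, with 1 open symbol per library (circles WT, squares KO) and a line through the mean of 3 libraries. CDKN1A, CDKN1C, CDKN2C and CDKN2D lie lower at 24 h than at 0 h in both genotypes, and CDKN1B lies higher, with a dip at 4 h after its rise at 2 h and, in KO, its highest values at 16 h.

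CDK4 (chr12:57747727-57756013, minus strand), the main D-cyclin kinase in many cell types, rose in both genotypes. Its 250 bases before the listed start (chr12:57752311-57752560, minus strand) are shown because they hold 3 copies of CACGTG, the E-box that MYC is known to bind with MAX, marked in capitals. This palindrome occurs at least 1 time in 6.34% of the windows of the same length and 3 times or more in 28 of 35116 (0.0797%).
CDK4: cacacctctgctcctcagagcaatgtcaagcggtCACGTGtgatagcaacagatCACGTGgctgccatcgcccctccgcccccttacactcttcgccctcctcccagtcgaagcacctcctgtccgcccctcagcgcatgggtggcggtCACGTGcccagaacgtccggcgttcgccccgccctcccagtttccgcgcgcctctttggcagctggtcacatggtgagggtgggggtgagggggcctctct
CDK4 stood at 177, 170.0 and 174 CPM in untreated WT libraries and at 241, 248 and 237 CPM at 24 h, and at 157, 158 and 155 CPM in untreated KO libraries and at 234, 235 and 243 CPM at 24 h. No library at 24 h overlapped an untreated one, and the log2 change was 0.48 ± 0.03 in WT (adjusted p = 1.5e-17) and 0.60 ± 0.03 in KO (adjusted p = 1.2e-20). The rise was first called at 4 h in WT (0.16 ± 0.03) and at 8 h in KO (0.33 ± 0.03). The difference of the courses was not called at 4 h (-0.12, adjusted p = 0.2) or 8 h (0.01, adjusted p = 0.89). KO minus WT was 0.12 ± 0.04 at 24 h (adjusted p = 0.032), a call that 9 of 12 single libraries decided. It was lost without any 1 of the 6 untreated libraries, KO 24 h replicate 3 or WT 24 h replicate 1 or 3, and the adjusted p reached 0.24. It was also lost with DESeq2 (0.085), RLE scaling (0.058) and no filter (0.1). TSPAN31 and MARCH9 overlap CDK4 on the opposite strand, with 7.71 and 6.45% as many counts, and both fell at 24 h in WT (-0.66 ± 0.09 and -1.0 ± 0.10) and in KO (-0.79 ± 0.08 and -0.84 ± 0.09).

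The motif search also covered TGATGNAA, the core of sites for ATF4 with C/EBP partners, TGACGTCA, the cyclic AMP response element, and the E2F forms TTTCCCGC, TTTGGCGC, TTTCGCGC and TTTGCCGC, each on both strands. Over the 12 windows CACGTG also occurred in 2 of the 3 windows of CDKN2C, which fell, and 3 or more GGGCGG were also in the window of CDK4, which rose, and in 1 window each of CCND3, CDKN2C and CDK6. CCAAT was also in 2 windows of CCND3 and 1 each of CDKN2C and CDKN2D. None of the 12 held the letters of the ATF4, cyclic AMP or E2F motifs, which occur in 3.14, 1.65 and 2.79% of all windows. A match or its absence describes these letters in this window and nothing of a factor's binding.

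CDK6 (chr7:92604921-92836594, minus strand), the second D-cyclin kinase, had a peak at 8 h in both genotypes. The WT libraries stood at 258, 266 and 246 CPM untreated, at 339, 370.0 and 337 CPM at 8 h and at 223, 218 and 222 CPM at 24 h. The KO libraries stood at 286, 288 and 292 CPM untreated, at 372, 393 and 377 CPM at 8 h and at 279, 260.0 and 249 CPM at 24 h. In each genotype the 8 h libraries lay above, and the 24 h libraries below, all untreated ones. The log2 change at 8 h was 0.45 ± 0.04 in WT and 0.40 ± 0.04 in KO, and at 24 h it was -0.21 ± 0.04 and -0.14 ± 0.04, all called. At 16 h CDK6 was still above untreated in KO alone, and KO minus WT was 0.21 ± 0.05 (adjusted p = 0.0018), with 339, 339 and 342 CPM in KO and 272, 247 and 261 CPM in WT. On the TPM scale this difference was 0.17 with adjusted p = 0.30. At 2 h KO minus WT was -0.24 ± 0.05 (adjusted p = 0.031), and this call was lost without any 1 of KO 0 h replicates 1, 2 and 3, KO 2 h replicates 1 and 2, WT 0 h replicates 1 and 3 or WT 2 h replicates 2 and 3 (adjusted p = 0.19 at most).

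**Figure D4:**
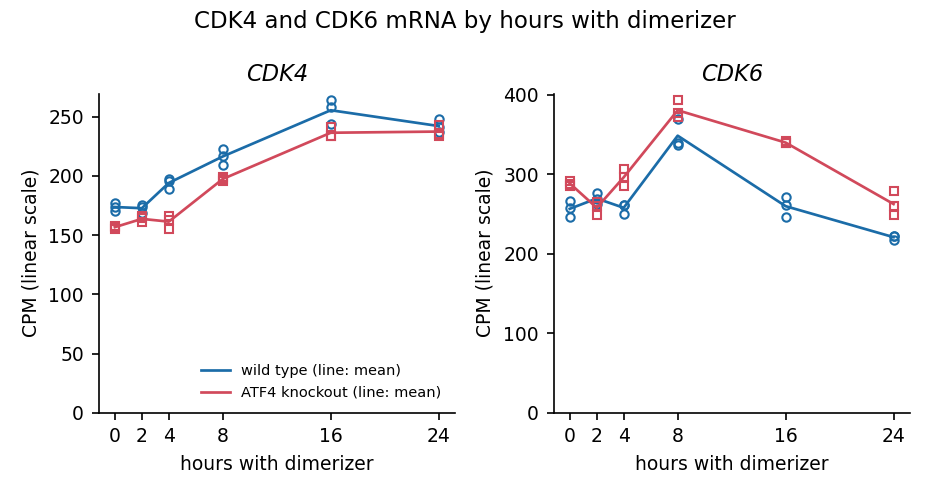
CPM of CDK4 and CDK6 (vertical axes, linear from 0) against hours with dimerizer, with 1 open symbol per library (circles WT, squares KO) and a line through the mean of 3 libraries. CDK4 climbs to 234 to 248 CPM at 24 h in both genotypes, and CDK6 has its highest values, 337 to 393 CPM, at 8 h.

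Summed over the genes of a role, the TPM of the kinases was higher at 24 h and that of the inhibitors lower in both genotypes. Not every gene moved with its sum. CDK6 went from 41.5 to 33.9 TPM in WT and from 46.4 to 39.8 TPM in KO, and CDKN1B was higher at 24 h in both. CDK4 and CDK6 together had 259 ± 2.98 TPM in untreated WT cells and 326 ± 18.8 TPM at 24 h, and in KO 248 ± 1.48 and 328 ± 4.37 TPM. The 5 inhibitors together had 214 ± 7.04 TPM in untreated WT cells and 143 ± 3.76 TPM at 24 h, and in KO 227 ± 8.03 and 137 ± 7.47 TPM. CDKN1A made up 60.8% of the inhibitor sum in untreated WT cells and 68.8% at 24 h. The libraries of 0 and 24 h did not overlap in any of these sums, on which no test was made.

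Counted over the 10 genes, most passed the test at late times, where most genes of the whole table did too. In WT, 3 of 10 were called at 2 h (CCND2 and CDKN1B higher, CCND1 lower; 22.6% of all tested genes were called), 7 at 4 h (44.7%), 10 at 8 h (59.3%), 9 at 16 h (66.5%) and 10 at 24 h (65.4%). In KO, 5 were called at 2 h (18.3%), 6 at 4 h (42.4%), 9 at 8 h (61.9%), 8 at 16 h (65.7%) and 9 at 24 h (65.4%). At 24 h, 3 genes were higher and 7 lower in WT, against 33.0 and 32.4% of all tested genes, and 2 were higher and 7 lower in KO, against 32.4 and 33.0%. The median log2 change at that time was -0.49 in WT and -0.17 in KO over the 10 genes and -0.02 and -0.03 over all tested genes. In KO at 2 h the call of CCND1 was lost without KO 0 h replicate 1 or KO 2 h replicate 2, and that of CDKN2C without KO 0 h replicate 3 or KO 2 h replicate 2. The count at 2 h was 3 without KO 2 h replicate 2. On the TPM scale the counts at 2 and 4 h in KO were 2 and 3. CDKN2D at 4 h was lost in WT without replicate 1 at 4 h, and in KO without 0 h replicate 3 or 4 h replicate 1.

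The difference of the courses, KO minus WT, was called for 2 of the 10 genes at 2 h (0.299% of all tested genes), 2 at 4 h (3.28%), 6 at 8 h (18.3%), 6 at 16 h (27.7%) and 7 at 24 h (29.8%). Without any 1 of the 9 libraries named for CDK6 the count at 2 h was 1. At 24 h CCND1, CCND3, CDKN2C and CDK4 were higher in this difference and CCND2, CDKN1A and CDKN1C lower, 4 and 3 genes against 17.7 and 12.1% of all tested genes, while CDKN1B, CDKN2D and CDK6 were not called. CCND2 and CDKN1C were the 2 genes beyond -1 at 8, 16 and 24 h. Both courses that enter a difference share their own untreated libraries with the other times, so the 5 differences of a gene are not independent.

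**Figure D5:**
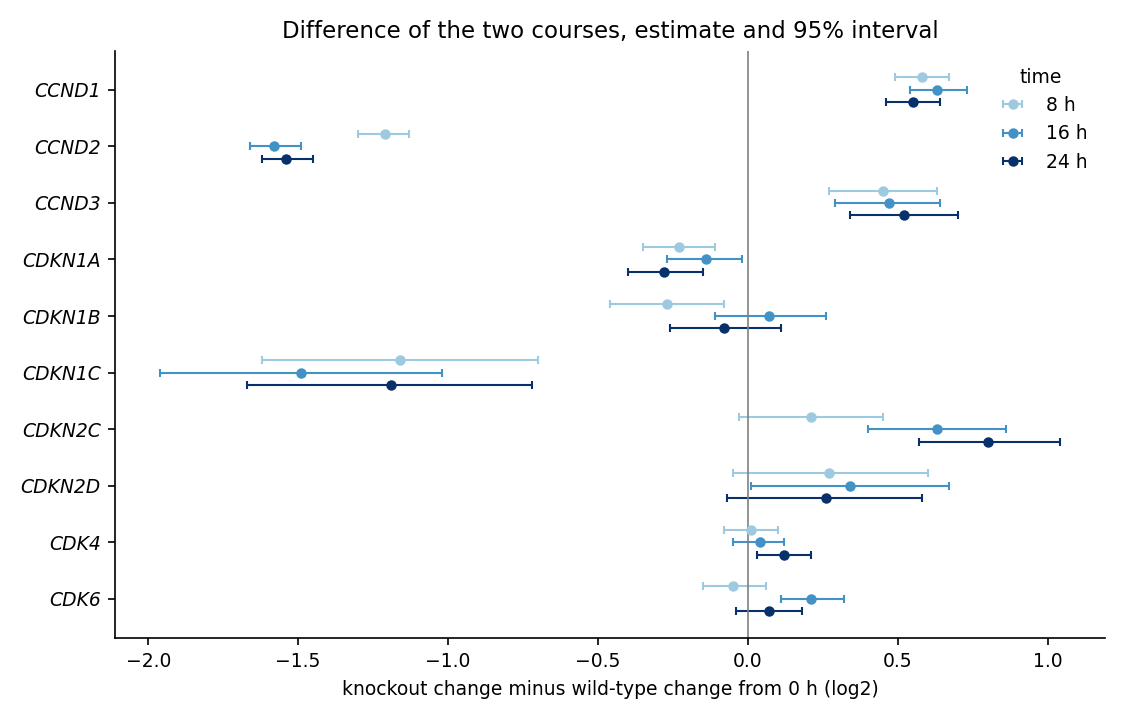
KO change from 0 h minus WT change from 0 h (horizontal axis, log2) for each of the 10 genes at 8, 16 and 24 h, as the estimate with its 95% interval from the fit to all 36 libraries. CCND2 (-1.21 to -1.58) and CDKN1C (-1.16 to -1.49) lie far to the left, and CCND1, CCND3 and, from 16 h, CDKN2C lie to the right of 0.

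The genotypes also differed before any dimerizer was added. At 0 h, 7 of the 10 genes were called between KO and WT (23.5% of all tested genes). CCND1 (0.36 ± 0.03), CDKN1C (0.50 ± 0.11), CDK6 (0.17 ± 0.04) and CDKN1A (0.13 ± 0.04) were higher in KO, and CDKN2C (-0.34 ± 0.07), CCND2 (-0.20 ± 0.03) and CDK4 (-0.15 ± 0.03) were lower, as log2 differences, which makes 4 and 3 genes against 11.6 and 11.9% of all tested genes. On the TPM scale CCND1 alone was called at 0 h, over the first 2 KO columns. The call of CDKN1A was lost without KO 0 h replicate 2 or WT 0 h replicate 3 (adjusted p = 0.083 and 0.081). At the later times 6 were called at 2 h (21.5%), 5 at 4 h (27.1%), 7 at 8 h (34.6%), 7 at 16 h (36.2%) and 7 at 24 h (38.1%). At 24 h CCND1 (0.91 ± 0.03), CCND3 (0.37 ± 0.07), CDKN2C (0.47 ± 0.09) and CDK6 (0.24 ± 0.04) were higher in KO and CCND2 (-1.74 ± 0.03), CDKN1C (-0.69 ± 0.21) and CDKN1A (-0.15 ± 0.05) lower (22.4 and 15.6% of all tested genes). The call of CDKN1C at 24 h was lost without WT replicate 1 (adjusted p = 0.061), and that of CDKN1A without KO replicate 2 or WT replicate 1 (adjusted p = 0.061 and 0.055). At other times the calls lost without 1 library were CDKN2C at 2 h (KO replicate 1 or 3, WT replicate 1 or 2) and 16 h (KO replicate 1) and CDK6 at 8 h (KO replicate 2, WT replicate 1 or 3).

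Markers of the cell cycle moved with these groups. All 13 S phase markers and all 10 markers of G2 and mitosis were lower in KO than in WT at 0 h, against 11.9% of all tested genes. The median log2 differences were -0.48 and -0.35, against 0.00 over all tested genes. The 13 S phase markers summed to 1558 to 1720 CPM in untreated WT libraries and 1115 to 1306 CPM in untreated KO libraries, and to 2183 to 2202 and 2147 to 2197 CPM at 24 h. The 10 markers of G2 and mitosis summed to 1696 to 1821 CPM in untreated WT and 1340 to 1451 CPM in untreated KO libraries, and to 1530 to 1598 and 1535 to 1553 CPM at 24 h. None of them was near 0, with 17.7 CPM as the lowest of any S phase marker in any library. At 24 h, 13 of 13 S phase markers rose in KO (median 0.95) and 9 rose and 1 fell in WT (median 0.42). Of all tested genes 32.4% rose and 33.0% fell in KO, and 33.0% rose and 32.4% fell in WT. UHRF1 rose by 1.34 ± 0.05 in KO and 0.43 ± 0.05 in WT, and CDC6, which loads the replicative helicase, by 1.68 ± 0.06 and 1.70 ± 0.05. Of the 10 markers of G2 and mitosis, 6 rose and 0 fell in KO (median 0.23), and 3 rose and 6 fell in WT (median -0.13). The 3 that rose in WT are near the share of all genes. The part of cell cycle phase in the differences of the 10 genes was not tested, and in bulk RNA a change in the number of cells in a phase and a change in RNA per cell cannot be told apart.

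Downstream of the D-cyclin kinases, 10 of 13 genes of the RB, E2F and DP families rose in each genotype at 24 h, and 3 fell in WT and 1 in KO. Of all tested genes 33.0% rose and 32.4% fell in WT and 32.4% rose and 33.0% fell in KO, against which this and the next counts are read. The median of the 13 was 0.34 in WT and 0.40 in KO. E2F1, an activator of S phase genes, rose by 0.70 ± 0.05 in WT and 1.43 ± 0.05 in KO on the log2 scale, with a called difference of 0.73 ± 0.07. Of the 13 genes, 2 had a higher and 0 a lower change in KO than in WT (median difference 0.08). Of all tested genes 17.7% had a higher and 12.1% a lower change, so the 2 are near that share. RBL2 (p130), the RB relative of resting cells, fell by 0.93 in WT and by 1.10 in KO (SE 0.06 each). Of 8 genes of cyclin E, cyclin A, their kinases and activators, 3 rose and 1 fell in WT, 6 rose and 2 were not called in KO, and 6 had a higher change in KO (17.7% of all tested genes); the WT count is near the share of all genes. CDK2 was at 0.00 ± 0.04 in WT (not called) and rose by 0.47 ± 0.05 in KO, CCNE1 rose by 0.29 ± 0.06 and 0.83 ± 0.06, and the phosphatase gene CDC25A by 0.85 ± 0.06 and 1.61 ± 0.07. Of these 8 genes, 7 were lower in KO than in WT at 0 h (median log2 difference -0.36), against 11.9% of all tested genes. At 24 h, 2 were higher and 2 lower in KO than in WT (median 0.04), against 22.4 and 15.6%.

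Of 17 tested transcription factors known to act on the 10 genes, 6 rose and 10 fell in each genotype at 24 h, with a median log2 change of -0.36 in WT and -0.43 in KO; the number that rose is near the share of all genes. MYC, which is known to activate CDK4 and CCND2 and to repress CDKN1A, rose by 1.52 ± 0.04 in WT and 1.28 ± 0.04 in KO at 2 h and by 1.14 ± 0.04 and 0.70 ± 0.04 at 24 h. The difference at 24 h was -0.44 ± 0.06. FOXO3, a known activator of CDKN1B, rose by 0.84 ± 0.04 in WT and 0.37 ± 0.04 in KO at 24 h. The part of these factors in the changes of the 10 genes was not tested.

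The genes most like the members were ranked by Pearson's r of mean log2 CPM over the 12 groups among 10514 genes whose average was 10 CPM or more. These values are a description, since groups share untreated libraries and genes rise and fall together with time. CCND2 was most like OGFRL1 (r = 0.987), SLC31A1 (0.984) and CTH (0.983), the gene of cystathionine γ-lyase, an ATF4 target in amino acid metabolism. CCND1 had lower best values, with PLPP2 (0.941), LYPD1 (0.937) and SIPA1 (0.934). CDK4 was most like PDAP1 (0.995), PSMG1 (0.993) and WDR18 (0.993), and CDKN1C most like SLC27A1 (0.996), IFT140 (0.983) and ACAD10 (0.982). CDKN1A was most like SHROOM3 (0.966) and KANSL1L (0.958). CDKN1B was most like BARD1 (0.971), STIL (0.949) and CDR2 (0.936), and CDKN2C like FAM102B (0.980), TCP11L1 (0.978) and BTG2 (0.974). CDKN2D was most like CYR61 (0.984), SIK1 (0.983) and FAM102B (0.978), CDK6 like FAM129B (0.940), JAZF1 (0.916) and PXN (0.908), and CCND3 like BMI1 (0.926) and FAM131A (0.902).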

How the data were processed

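Per the labels, total RNA was taken from 24-well plates and directional libraries were sequenced on a NovaSeq. FastQC 0.11.5, Salmon 0.9.1 and GRCh38 are named in the submitters' processing notes; of the annotation release, strand setting and transcript-to-gene step, none is given in the sources used here. The authors deposited expected counts per gene and TPM for the same 36 libraries. Positions are from GENCODE 29. The deposited TPM had the smallest value 0.102292 in every column, and 33 of 36 count columns matched the TPM column of the same name best; the exceptions were the untreated KO libraries, so tests used counts, and TPM served for levels between genes and as an alternative. Untreated KO levels on the TPM scale use the first and the second column.

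Counts were rounded, filtered with filterByExpr by group, scaled by TMM and fitted with a mean per group to all 36 libraries in edgeR 4.0.16 (quasi-likelihood F-test; R 4.3.3, limma 3.58.1). Each of the 21 contrasts had its own Benjamini-Hochberg adjustment, and calls needed an adjusted p under 0.05. Intervals are 95%. CPM are relative to TMM-scaled library sizes. The depth of 8608783 to 16265056 counts per library limits precision for the low genes. Alternatives were DESeq2 1.42.0, RLE scaling, a fit of the contrast's groups alone, no filter, a replicate block, limma on log2(TPM + 1) and log2(TPM + 0.1), TPM with 2 untreated KO columns, and each library left out. The fit was tested on simulated data. Replicate libraries were checked for duplicates (chi-square per degree of freedom 1.34 to 2.57).

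The members and gene lists were chosen with earlier results of these data known. Named genes are all members, ATF4 and, of each list, up to 3 with the smallest adjusted p in the KO minus WT change at 24 h and up to 2 at 24 h in WT, of which the text gives some; overlapping genes are named for their overlap. For each member the 3 genes with the highest r are named, except that some items are not reported here.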

Additional observations from a re-analysis of the deposited data

Results flagged for a closer look

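The change from 0 h differed between the genotypes, by a test of the difference itself in the fit to all libraries, for 23 pairs of gene and time. All values are KO change minus WT change on the log2 scale. CCND2 was lower in KO at each time, by -0.24 at 2 h, -0.87 at 4 h, -1.21 at 8 h, -1.58 at 16 h and -1.54 at 24 h. CDKN1C was lower from 8 h on (-1.16, -1.49 and -1.19), and CDKN1A was lower at 8 h (-0.23) and 24 h (-0.28). CCND1 was higher from 4 h on (0.35, 0.58, 0.63 and 0.55), CCND3 from 8 h on (0.45, 0.47 and 0.52) and CDKN2C at 16 h (0.63) and 24 h (0.80). CDK6 was lower at 2 h (-0.24) and higher at 16 h (0.21). CDKN1B was lower at 8 h (-0.27) and CDK4 higher at 24 h (0.12). The values of CDK6 at 2 h, CDKN1B at 8 h and CDK4 at 24 h are those that single libraries decided. None of them was called under any TPM setting. The same held for CCND1 at 4 h, CCND2 at 2 h, CCND3 from 8 h on and CDK6 at 16 h. CDKN1A at 8 and 24 h and CDKN2C at 16 and 24 h were called under 1 of the 3 TPM settings.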

How the results depend on the processing

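Of 138 called values of the 10 genes, 125 were called with the same sign under every setting that used counts, and 76 under every count and TPM setting. The replicate block changed no call except CCND3 in KO at 4 and 16 h, which it added. These values were 0.15 (adjusted p = 0.046) and 0.14 (adjusted p = 0.04). Same-numbered libraries deviated together (every r above 0.1) in 1 of 16 contrasts of a pair of groups, and the main fit has no block. That rule needs all 3 pairs of a contrast to pass, and 26 of 36 libraries were closest to their own number. Whether same-numbered libraries share an effect was not tested. With 1 library left out, counts of called genes ran from 3 to 5 for KO at 2 h and from 1 to 2 for KO minus WT at 2 h. For the latter, RLE scaling gave 1 and the fit of the contrast's groups alone 1.

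Most losses came on the TPM scale, and the cause was not tested. With limma on log2(TPM + 1) or log2(TPM + 0.1) alike, 0 genes were called in WT at 2 h and 1 in KO at 2 h. For KO minus WT the counts at 2, 4, 8, 16 and 24 h were 0, 1, 3, 3 and 3. For KO against WT the counts at 0, 2, 4 and 24 h were 1, 2, 3 and 3, and at 8 h they were 3 and 4 in that order. With the first 2 untreated KO columns the counts for KO at 2 and 4 h were 2 and 3. They were 1 for KO against WT at 0 h, and 0 and 1 for KO minus WT at 2 and 4 h. Where limma called 0 genes, the numbers at an unadjusted p under 0.05 were 3 in WT at 2 h. For KO minus WT at 2 h they were 2 with all columns and 1 with the first 2 untreated KO columns. There edgeR called 2.

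Signs of values called in at least 1 of the fits compared turned as follows on log2(TPM + 1) and then log2(TPM + 0.1) with all 3 untreated KO columns. For KO against its 0 h these were CCND1 at 2 h (0.14, 0.14), CCND2 at 4 h (0.06, 0.06), CCND3 at 8 h (-0.22, -0.23) and 16 h (-0.20, -0.21), CDK6 at 2 h (0.09, 0.10), CDKN1B at 2 h (-0.18, -0.18), 8 h (-0.30, -0.31), 16 h (-0.01, 0.00) and 24 h (-0.20, -0.20) and CDKN2C at 2 h (-0.21, -0.21). For KO against WT at 0 h they were CDK6 (-0.06, -0.06), CDKN1A (0.00, 0.00) and CDKN2C (0.15, 0.15), and for KO minus WT at 2 h CDK6 (0.03, 0.04). With the first 2 untreated KO columns the CCND3 values were -0.22 and -0.20 too (adjusted p = 0.054 and 0.069), and none of the others turned. CDK4 in WT at 2 h was 0.11 in all 3 TPM fits, against -0.01 on counts. It was called in the fit with the first 2 untreated KO columns (adjusted p = 0.049). Signs of values called in neither fit turned 109 times over all settings. Depth limits CDKN1C and CDKN2D most, whose 95% intervals are the widest of the 10.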

Other observations

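Of 19 tested genes that control the turnover of D-type cyclins, p21 and p27, 7 rose and 7 fell in WT at 24 h, near the 33.0 and 32.4% of all tested genes that did so, and 10 rose and 4 fell in KO (32.4 and 33.0%). The median log2 change was 0.07 in WT and 0.21 in KO. SKP2, the F-box protein that marks p27 for destruction, fell in WT by 0.86 on the log2 scale (SE 0.08, adjusted p = 3.3e-13) and changed by -0.11 ± 0.08 in KO, which was not called; the difference was 0.75 ± 0.11 (adjusted p = 4e-07). CKS1B, the cofactor of SKP2, rose in both genotypes, by 1.01 ± 0.04 in WT and 1.16 ± 0.04 in KO. DTL, the substrate receptor that targets p21 in S phase, rose by 1.08 ± 0.06 and 1.28 ± 0.07. RBX1, a RING subunit of cullin ligases, fell in WT by 0.22 and rose in KO by 0.21 (SE 0.05 each), a difference of 0.43 ± 0.07.

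Of 7 genes of the CDK-activating kinase and the chaperones that load CDK4, 6 rose and 1 fell in WT at 24 h (33.0 and 32.4% of all tested genes), and 7 rose in KO (32.4%), with medians of 0.59 and 0.63. CDC37, the chaperone that hands CDK4 to HSP90, rose by 0.73 ± 0.04 in WT and 0.77 ± 0.04 in KO, and CDK7, the catalytic subunit of the activating kinase, by 0.67 ± 0.05 and 0.63 ± 0.05. HSP90AA1 was the gene that fell in WT (-0.26 ± 0.03) and it rose in KO (0.10 ± 0.03), with a difference of 0.36 ± 0.04.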
